A study of Mus musculus with 16 samples.

Results

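The 10 genes described here, called members below, are the AP-1 and immediate-early genes Fos, Fosb, Fosl2, Jun, Junb, Jund, Atf3, Egr1, Egr2 and Ier3. They were chosen by name, with earlier results of these data known. All 10 were found by Entrez identifier among the 27179 genes of the count table. All 10 were also among the 12589 genes that passed the low-count filter. Expression was measured by RNA sequencing in iBMDM MyD88-AGF, a mouse macrophage line made by immortalising bone-marrow-derived cells and labelled with the genotype MyD88-AGF WT, which every group shares. LPS, the bacterial glycolipid sensed by TLR4, was given at 10 ng/mL for 6 h. After LPS, the cells sorted for high side scatter were named responders and those sorted for low side scatter bystanders. The ungated LPS pool and the untreated cells passed through the cytometer afterwards without a gate, so the order of collection goes with the gate. Each of the 4 groups had 4 libraries, and no label says that these came from separate cultures, so each p-value is set against a spread among libraries that may be technical in part or whole. The gates were set on side scatter, a measure of internal granularity, and not on a reporter of signalling, and the line is a cultured model of macrophages.

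AP-1 is a family of dimeric transcription factors. A Fos protein pairs with a Jun protein, Jun proteins also pair with each other, and ATF3 can join them, and the dimers bind short palindromic sites in promoters and enhancers. Their genes, and those of the EGR zinc-finger factors, belong to the immediate-early class, which is transcribed within minutes of a stimulus from factors already present in the cell, often as a brief pulse. In macrophages TLR4 drives them through MAP kinases, serum response factor and NF-kappaB. Ier3 is an immediate-early gene too, but its product is a small regulator of cell survival and stress signalling that is not known to bind DNA, so the name transcription factors covers only 9 of the 10 genes.

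Library totals ran from 15287344 to 25193162 counts. All 9 macrophage markers were tested, and their summed level was 3166 to 3856 CPM (read counts scaled to a common library size, after TMM normalisation) across the 16 libraries, lowest in the untreated group. Transcripts of other tissues were present in some libraries. Stmn2, a neuronal gene, had 59 to 88 reads in 6 libraries, which were LPS pool replicates 3 and 4, bystander replicates 3 and 4, responder replicate 1 and untreated replicate 1, against 1 to 6 reads in the other 10. Col1a1, a collagen gene, had 1185 reads in LPS pool replicate 3 and 1385 in bystander replicate 3, against 28 to 365 in the other 14. The summed levels of the 6 fibroblast markers reached 105 CPM in the pool and 76.8 CPM in bystanders, beside maxima of 30.3 in responders and 30.7 in untreated cells. The summed levels of the 16 neural markers were 89.8 to 108 CPM in untreated libraries and 44.0 to 65.6 CPM in the others. What part these transcripts have in the differences described below was not tested. The summed levels of the 5 dendritic cell markers were 0.498 to 0.925 CPM in untreated libraries, 3.37 to 5.28 in the pool, 4.28 to 5.37 in responders and 7.14 to 8.48 in bystanders. Those of the 6 neutrophil markers were 1.09 to 2.099 CPM in responders and 1.04 to 1.68 in the pool, beside 0.205 to 0.427 in bystanders and 0.226 to 0.417 in untreated libraries. Only 1 of the dendritic cell markers and 1 of the neutrophil markers passed the low-count filter, so these sums do not show a change in a set of markers. Of the 6 lymphocyte markers 4 were at 0 in every group. The Col1a1 reads were alike in same-numbered libraries of the pool and bystanders and of responders and untreated cells, for example 39 and 28 in replicate 2 of the former and 99 and 99 of the latter.

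Scaling by library totals alone, without TMM, moved the all-gene median log2 difference from -0.01 to -0.20 for responders against bystanders and from 0.01 to -0.18 for bystanders against untreated cells. For the pool and for responders against untreated cells it moved from -0.03 to -0.36 and from -0.02 to -0.41, and for bystanders against the pool from 0.00 to 0.14. The share of calls that were higher then went from 49.5% to 27.8% for responders against bystanders, and from 47.4% to 21.6%, 48.7% to 21.7% and 50.9% to 27.5% for the pool, responders and bystanders against untreated cells. Against the pool it went from 62.7% to 30.7% for responders, 50.9% to 68.3% for bystanders and 49.6% to 61.5% for the mean of both gates. Differences are given relative to the TMM scale.

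The stretches of 250 bases before the RefSeq transcription starts of Fos, Jun, Atf3 and Ier3 (GRCm38.p6, 5′ to 3′ on the gene's strand) are shown because these 4 genes carry the contrasts described below. Fos and Jun were highest in bystanders, whereas Atf3 and Ier3 rose most after LPS and were highest in responders. Capitals mark matches to the motifs searched.
Fos (chr12:85473640-85473889, plus strand): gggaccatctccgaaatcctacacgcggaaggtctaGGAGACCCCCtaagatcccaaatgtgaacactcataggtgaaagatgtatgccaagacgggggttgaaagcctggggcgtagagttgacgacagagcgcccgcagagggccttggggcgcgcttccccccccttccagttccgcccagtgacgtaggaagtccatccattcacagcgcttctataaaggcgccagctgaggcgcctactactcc
Jun (chr4:95052223-95052472, minus strand): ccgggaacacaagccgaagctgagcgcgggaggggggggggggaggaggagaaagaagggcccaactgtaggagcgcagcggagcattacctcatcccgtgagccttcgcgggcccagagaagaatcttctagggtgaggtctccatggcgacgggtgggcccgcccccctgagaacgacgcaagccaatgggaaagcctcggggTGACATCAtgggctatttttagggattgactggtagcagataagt
Atf3 (chr1:191183334-191183583, minus strand): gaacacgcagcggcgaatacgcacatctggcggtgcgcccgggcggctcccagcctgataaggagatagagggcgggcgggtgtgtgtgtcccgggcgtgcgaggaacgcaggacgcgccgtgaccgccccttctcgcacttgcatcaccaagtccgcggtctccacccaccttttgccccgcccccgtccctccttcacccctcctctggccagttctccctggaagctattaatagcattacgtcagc
Ier3 (chr17:35821463-35821712, plus strand): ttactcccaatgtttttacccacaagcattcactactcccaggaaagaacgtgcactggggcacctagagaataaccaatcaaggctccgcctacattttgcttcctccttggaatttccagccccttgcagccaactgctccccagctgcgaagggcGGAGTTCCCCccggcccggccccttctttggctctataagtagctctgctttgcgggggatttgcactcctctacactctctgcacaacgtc
The capitals in Jun are TGACATCA, the variant AP-1 site, at 45 to 38 bases before the start. Those in Ier3, at 92 to 83 bases, and in Fos, at 214 to 205 bases, match the NF-kappaB consensus. The motifs were searched on both strands in the windows of 9 members, Egr1 not being included. A member with more than 1 annotated start, such as Egr2, was counted if any of its windows held the motif. The background percentages are per window, so the member counts and these percentages are not like for like. The NF-kappaB consensus was found in 4 of the 9 (Fos, Fosb, Fosl2 and Ier3), beside 3.9% of all 32851 windows in the table. TGACATCA was found in 1 member and 2.93% of windows, and the CArG box of serum response elements in 1 member, Egr2, and 1.47% of windows. The EGR site GCGNGGGCG was found in 2 members, Fosb and Fosl2, and 4.7% of windows. The palindromic AP-1 site TGANTCA and the CRE TGACGTCA were found in none of the 9, beside 6.75% and 1.55% of windows. A match describes the letters only, and no match says only that these letters are not in this window.

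Between the gates, the members split. Ier3, Jund, Atf3, Junb and Fosl2 were higher in responders than in bystanders, Fos and Jun were lower, and Fosb, Egr1 and Egr2 had no call. These 5 higher and 2 lower genes compare with 34.7% of all tested genes called higher and 35.3% called lower, so the share of members called, 7 of 10, was that of the background, 70%. Without LPS pool replicate 3, which enters this comparison through the shared fit, 4 members were lower. The median log2 difference was 0.10 over the members and -0.01 over all genes.

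**Figure D1:**
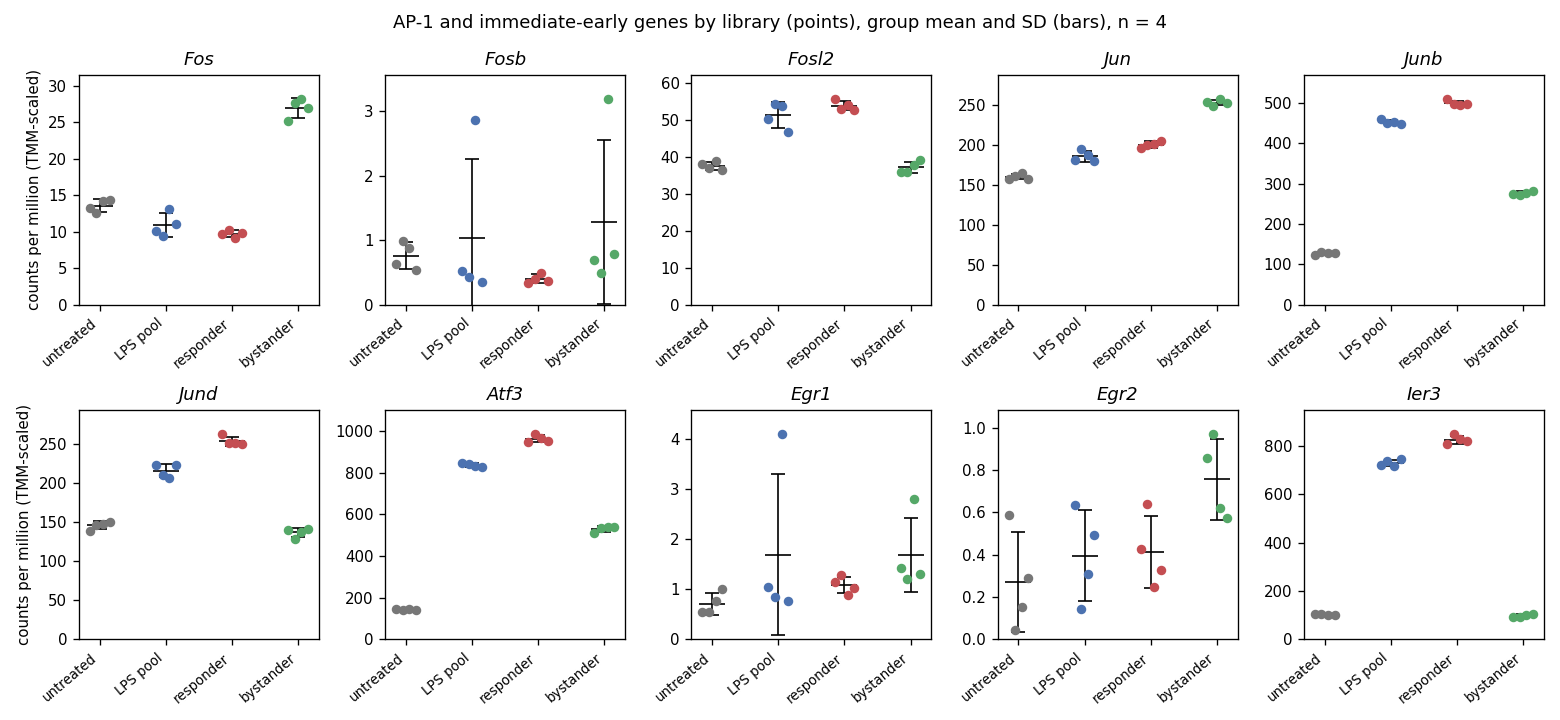
Each panel plots 1 gene, with TMM-scaled CPM on a linear axis from 0, 1 point per library and bars for the group mean and SD (n = 4, bars cut at 0). Fos and Jun are highest in bystanders, Junb, Jund, Atf3, Ier3 and Fosl2 in responders or the LPS pool, and in Fosb and Egr1 a single library stands far above the others in the LPS pool and in bystanders.

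Junb (GRCm38 chromosome 8, 84976909 to 84978748) encodes a Jun-family subunit that forms weaker activating dimers than Jun on many sites. It stood at 122, 129.7, 128 and 129 CPM in the untreated libraries and at 459, 450.4, 453 and 449 CPM in the pool. In responders it was at 509, 498, 496 and 498 CPM, and in bystanders at 274, 273, 278 and 282 CPM. The 4 groups did not overlap, in the order untreated, bystander, pool, responder. LPS raised Junb 3.56-fold in the pool (log2 1.83 ± 0.02 SE, adjusted p = 7.04e-60), 3.93-fold in responders and 2.18-fold in bystanders. Responders held 1.81 times the bystander level (adjusted p = 3.69e-43). All adjusted p-values are from edgeR's quasi-likelihood test with Benjamini-Hochberg adjustment over 12589 genes.

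Jund (chromosome 8, 70697739 to 70700616) encodes the Jun-family subunit that most cells make without a stimulus. The untreated libraries held 139, 147, 148 and 150.4 CPM, and the bystander libraries 139.7, 129, 138 and 142 CPM. In the pool it was at 224, 211, 207 and 223 CPM, and in responders at 263, 251, 251 and 250.4 CPM. The pool and responder libraries lay above all untreated and bystander libraries, and the latter groups overlapped. Jund rose 1.48-fold in the pool (adjusted p = 2.30e-23) and 1.74-fold in responders (adjusted p = 2.77e-30). In bystanders it was 1.06-fold lower than in untreated cells (log2 -0.09 ± 0.03, adjusted p = 0.00748), a call lost without bystander replicate 2 (adjusted p = 0.0599). Responders and bystanders differed 1.85-fold (log2 0.89 ± 0.03, adjusted p = 1.03e-31).

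Jun (chromosome 4, 95049036 to 95052222), the founding AP-1 subunit, behaved otherwise. It was highest in bystanders, at 254, 249, 257 and 253 CPM, and next in responders, at 196, 199.5, 201 and 206 CPM. The pool held 181, 195, 188 and 179.6 CPM and the untreated libraries 158, 161, 165 and 158 CPM. No 2 groups overlapped. Bystanders were 1.58-fold above untreated cells (log2 0.66 ± 0.02, adjusted p = 1.97e-33) and responders were 1.26-fold below bystanders (log2 -0.34 ± 0.02, adjusted p = 1.57e-19). The differences of 1.16-fold in the pool and 1.25-fold in responders against untreated cells (adjusted p = 4.15e-11 and 2.90e-18) turned in sign with library totals alone, to log2 -0.11 and -0.06 (adjusted p = 4.81e-05 and 0.0194). Of the 7 members called between the gates, Jun was the one whose pool mean lay outside them, below both: responders were 1.08-fold above the pool (adjusted p = 0.000559), a call lost with library totals alone (adjusted p = 0.106), and bystanders 1.36-fold above it (adjusted p = 1.77e-24).

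Fos (chromosome 12, 85473890 to 85477274) encodes the classical partner of Jun. Bystander libraries held 25.1, 27.6, 28.1 and 26.9 CPM and untreated libraries 13.2, 12.5, 14.2 and 14.3 CPM. The pool was at 10.1, 9.44, 13.1 and 11.04 CPM and responders at 9.75, 10.2, 9.15 and 9.79 CPM. All 4 bystander libraries lay above the other 12, all responder libraries lay below the untreated ones, and the pool overlapped with both untreated cells and responders. Fos was 1.99-fold higher in bystanders than in untreated cells (log2 0.99 ± 0.07, adjusted p = 4.26e-20) and 1.40-fold lower in responders (log2 -0.48 ± 0.08, adjusted p = 2.36e-07). Responders were 2.77-fold below bystanders (log2 -1.47 ± 0.07, adjusted p = 6.59e-27). The pool was 1.25-fold below untreated cells (adjusted p = 0.000303), and log2 -0.42 in place of -0.33 without the 2 libraries high in Col1a1. A direct comparison of responders with the pool gave no call (log2 -0.15 ± 0.09, adjusted p = 0.196). In these bulk libraries, fewer cells with a transcript and less of it per cell cannot be told apart.

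Fosl2 (chromosome 5, 32136472 to 32157840) encodes Fra-2, a Fos-family protein that lacks the strong activation region of Fos. It was at 37.99, 37.0, 38.8 and 36.4 CPM in untreated libraries and at 35.8, 35.9, 37.6 and 39.0 CPM in bystanders. The pool held 50.2, 54.2, 53.7 and 46.6 CPM, and responders 55.4, 52.9, 53.9 and 52.7 CPM. The former pair of groups overlapped, as did the latter pair, and every library of the latter lay above every library of the former. Fosl2 rose 1.37-fold in the pool (adjusted p = 5.13e-14) and 1.43-fold in responders (adjusted p = 6.75e-17), and responders were 1.44-fold above bystanders (log2 0.53 ± 0.04, adjusted p = 5.89e-17). Bystanders against untreated cells gave log2 -0.01 ± 0.05 (adjusted p = 0.831), and -0.20 (adjusted p = 6.57e-05) with library totals alone.

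Fosb (chromosome 7, 19302696 to 19310118) encodes another partner of Jun, known for its role in neurons as well as in the immediate-early response. It was near the lower limit of detection, with 5 to 82 reads per library. The pool libraries held 9, 9, 46 and 5 reads and the bystander libraries 12, 8, 82 and 19, against 7, 8, 10 and 8 in responders and 14, 22, 17 and 13 in untreated cells. The 2 highest libraries, LPS pool replicate 3 at 2.85 CPM and bystander replicate 3 at 3.18 CPM, are those with the most Col1a1 reads, and the other 14 lay between 0.333 and 0.989 CPM. In edgeR with TMM scaling, 1 mean per group and all 16 libraries, Fosb had no call in any comparison. The comparison of responders with bystanders had log2 -1.74 ± 0.77 (adjusted p = 0.0611). The same comparison passed with DESeq2 (adjusted p = 0.0384) and with library totals alone (adjusted p = 0.0382). Without LPS pool replicate 3 alone it was -1.73 (adjusted p = 0.00236), and without both of those libraries -0.71 (adjusted p = 0.101). The difference between responders and untreated cells, whose libraries did not overlap, then passed at log2 -0.91 (adjusted p = 0.0180), beside the same -0.91 and adjusted p = 0.340 over all libraries. What part transcripts of other tissues have in the Fosb levels was not tested.

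**Figure D2:**
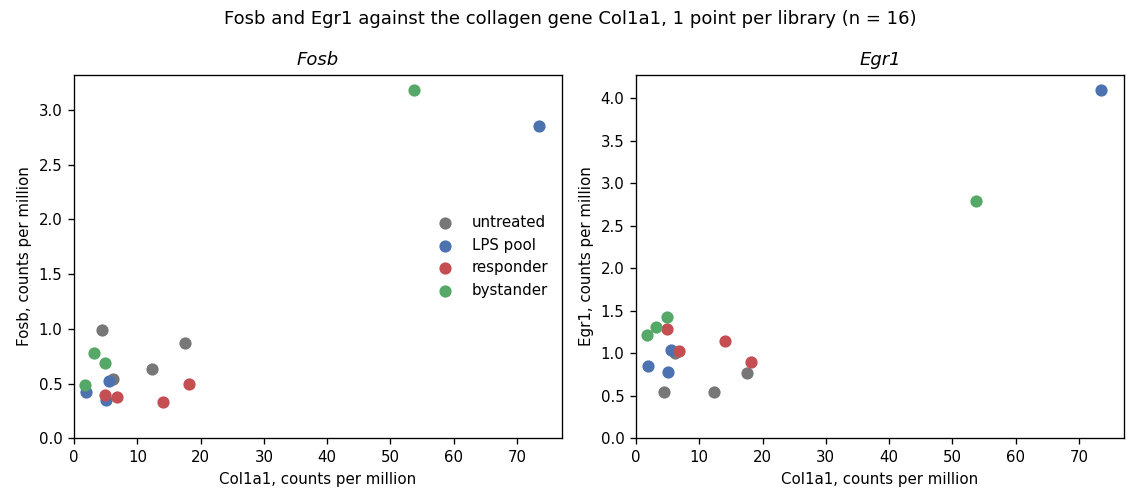
Levels of Fosb and Egr1 (vertical axes) are plotted against Col1a1 (horizontal axes), all in TMM-scaled CPM on linear axes from 0, with 1 point per library. The 2 libraries at 53.7 and 73.5 CPM of Col1a1 hold the highest levels of both genes.

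Egr1, a zinc-finger factor that is among the fastest genes to respond to ERK signalling, had 11 to 72 reads per library. The pool libraries held 1.04, 0.854, 4.09 and 0.774 CPM and the bystander libraries 1.43, 1.21, 2.79 and 1.31 CPM. Responders were at 1.14, 1.28, 0.896 and 1.03 CPM, and untreated libraries at 0.543, 0.540, 0.771 and 1.00 CPM. All bystander libraries lay above all untreated ones, while the other groups overlapped, and the highest value of the pool and of bystanders was again in replicate 3. Bystanders were higher than untreated cells (log2 1.26 ± 0.51, adjusted p = 0.0440). That call was lost when any one of 9 libraries was left out, namely bystander replicates 1 and 3, responder replicates 1 to 4 and untreated replicates 1 to 3, with adjusted p from 0.0534 to 0.132. Without LPS pool replicate 3 the adjusted p was 8.92e-05. With scaling by totals it did not pass (log2 1.07, adjusted p = 0.0797), nor without the 6 libraries high in Stmn2 (log2 0.77, adjusted p = 0.0587). Without the 2 libraries high in Col1a1 it was log2 0.87 (adjusted p = 0.0106). The pool against untreated cells gave log2 1.21 ± 0.53 (adjusted p = 0.0542), and log2 0.32 (adjusted p = 0.396) without those 2 libraries. It passed with DESeq2 (adjusted p = 0.0278), with no filter on low counts (adjusted p = 0.00207) and with a replicate block (adjusted p = 0.00773). The pool also passed against untreated cells when LPS pool replicate 1, 2 or 4, bystander replicate 3 or untreated replicate 4 was left out (adjusted p from 0.0215 to 0.0485). Responders against bystanders gave log2 -0.66 ± 0.49 (adjusted p = 0.245). That difference passed with only the groups compared (adjusted p = 0.0139) and without LPS pool replicate 3 (adjusted p = 0.0264), and in no other alternative.

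Egr2 (chromosome 10, 67534469 to 67542188), a related factor that restrains macrophage and lymphocyte activation, had 1 to 16 reads per library. It had 13, 1, 3 and 7 reads in untreated libraries, 11, 3, 5 and 7 in the pool, 9, 13, 5 and 7 in responders and 15, 16, 16 and 14 in bystanders. Bystanders were higher than untreated cells (log2 1.42 ± 0.43, adjusted p = 0.00322), although 1 untreated library, at 0.589 CPM, lay within the bystander range of 0.574 to 0.969. Against the pool the adjusted p was 0.0499, which stayed under 0.05 when LPS pool replicate 1 or 4, bystander replicate 4 or untreated replicate 1 or 2 was left out and not when any other single library was, up to 0.242 without LPS pool replicate 2. That call was lost with DESeq2 (adjusted p = 0.115), no filter (0.0974), RLE factors (0.0541) and without the 2 libraries high in Col1a1 (0.104). Responders against bystanders gave log2 -0.84 ± 0.41 (adjusted p = 0.0630). The adjusted p was 0.0212 with library totals alone, 0.0341 with only the groups compared and 0.0364 without the 6 libraries high in Stmn2. It was 0.0306 without responder replicate 2, and the other alternatives gave no call. The annotated non-coding RNA Gm32255 overlaps Egr2, and the strand setting of the counting is not given in the sources used here, so reads of the pair cannot be told apart.

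Atf3 (chromosome 1, 191170296 to 191183333), a stress-induced factor that represses many inflammatory genes in macrophages, rose in the pool and in both gates. Untreated libraries held 144, 142, 146 and 143 CPM, and pool libraries 847, 841.5, 831 and 825 CPM. Responders were at 947, 983, 963 and 952 CPM, and bystanders at 508, 532, 539 and 537 CPM. The 4 groups did not overlap, and their order was that of Junb. The rise from untreated was 5.81-fold in the pool (log2 2.54 ± 0.02, adjusted p = 4.23e-68), 6.68-fold in responders and 3.68-fold in bystanders (adjusted p = 4.00e-70 and 7.01e-61). Responders stood 1.82-fold above bystanders (log2 0.86 ± 0.02, adjusted p = 2.06e-44).

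Ier3 (chromosome 17, 35821713 to 35822911) had the largest difference between the gates of the 10. It stood at 809, 848, 827 and 820.2 CPM in responders and at 93.5, 92.0, 101 and 105 CPM in bystanders. Pool libraries held 719.9, 736, 716 and 745 CPM and untreated libraries 103, 104, 102 and 101 CPM. Responders were 8.41-fold above bystanders (log2 3.07 ± 0.03, adjusted p = 1.24e-61). Ier3 rose 7.11-fold in the pool and 8.05-fold in responders (adjusted p = 4.22e-61 and 1.17e-62). In bystanders the difference from untreated cells was log2 -0.06 ± 0.03 (adjusted p = 0.0578). It was log2 -0.14 (adjusted p = 0.000134) in the 10 libraries low in Stmn2, which leave out bystander replicates 3 and 4, the higher pair, log2 -0.10 (adjusted p = 0.00295) without bystander replicate 4 alone and log2 -0.08 (adjusted p = 0.0363) without bystander replicate 3 alone. Without the 2 libraries high in Col1a1 it was log2 -0.08 (adjusted p = 0.0354). With library totals alone it was log2 -0.26 (adjusted p = 2.06e-11).

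Set against untreated cells, 6 members were higher and 1 lower in the pool, in responders and in bystanders alike, but these were not the same members. The untreated libraries serve all 3 comparisons. In the pool and in responders, Fosl2, Jun, Junb, Jund, Atf3 and Ier3 were higher and Fos was lower, with Jun turning lower with library totals alone. In bystanders, Fos, Jun, Junb, Atf3, Egr1 and Egr2 were higher and Jund was lower. Of all tested genes, 34.1% were called higher and 37.8% lower in the pool, 36.5% and 38.5% in responders, and 34.1% and 33% in bystanders. In either direction these are 71.9%, 75% and 67.1% of genes, beside 7 of the 10 members in each comparison. The median log2 change of the members was 0.52, 0.59 and 0.91 in that order, beside -0.03, -0.02 and 0.01 over all genes. The bystander median depends on the genes of few reads, Fosb at log2 0.83 without a call, Egr1 at 1.26 and Egr2 at 1.42. Without the 2 libraries high in Col1a1, Fosb was at log2 -0.19 there. The medians therefore do not rank the groups. Fos was the member called in opposite directions in the gates, and for Jund the calls were opposite as well but small in bystanders. For Fos, Jun, Junb, Jund, Atf3, Fosl2 and Ier3 the difference between the gates itself passed the test, as given above.

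**Figure D3:**
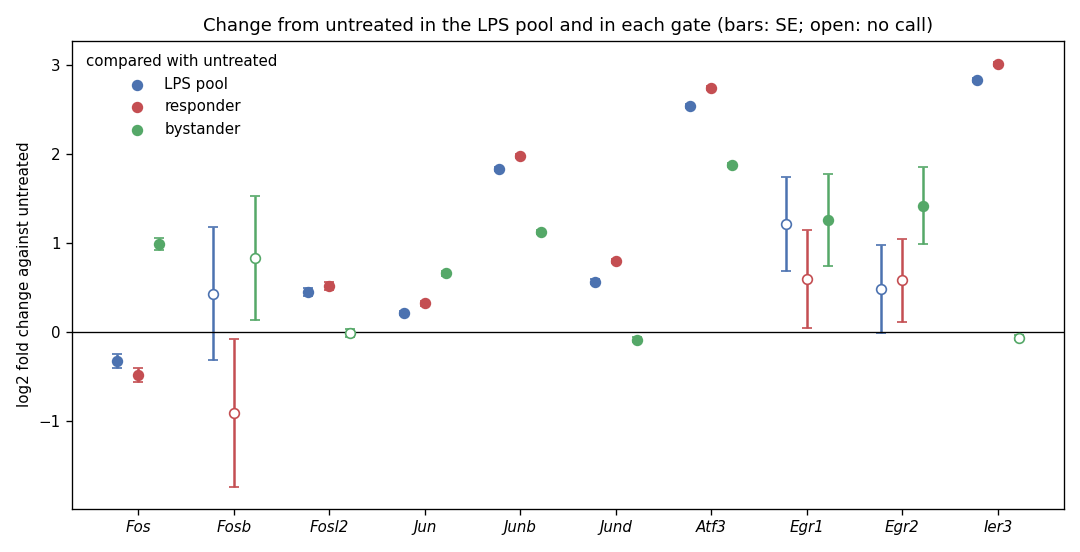
The vertical axis gives the log2 fold change against untreated cells with its SE for each gene in the LPS pool, in responders and in bystanders, filled where adjusted p was under 0.05. Fos lies above 0 in bystanders and below 0 in the pool and responders, Ier3 near 0 in bystanders alone, and the pool and responder values of Jun, above 0 here, turn below 0 with library totals alone.

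The LPS pool, which holds both kinds of cell, lay near responders. Against the pool, responders had 5 members higher and 0 lower (background 16% and 9.49% of genes, 25.5% in all). The 5 were Jun, Junb, Jund, Atf3 and Ier3, by 1.08-fold to 1.17-fold, and Jun lost its call with library totals alone. The other 5 had no call by edgeR, none of them with an unadjusted p under 0.05. Bystanders had 3 members higher (Fos, Jun and, under the limits given above, Egr2) and 5 lower (Fosl2, Junb, Jund, Atf3 and Ier3), beside 34.1% and 32.9% of all genes, 67% in all. Placed on a scale from the bystander mean at 0% to the responder mean at 100%, in CPM, the pool stood at 67.8% ± 4.23 (SE, n = 4 libraries per group) for Jund, 71.0% ± 1.79 for Atf3 and 78.9% ± 1.49 for Junb. It stood at 84.7% ± 11.1 for Fosl2, 86.7% ± 1.36 for Ier3 and 93.1% ± 4.77 for Fos. With library totals alone the pool stood at 70.1% for Jund, 74.2% for Atf3, 84.0% for Junb, 95.4% for Fosl2, 90.5% for Ier3 and 92.3% for Fos. The SE does not include this dependence on scaling. For Jun it lay past the responder end, at 128% ± 8.22, and at 109% with library totals alone. When the mean of both gates was set against the pool, Fos and Jun were higher and Fosl2, Junb, Jund, Atf3 and Ier3 lower, that is 2 and 5 members beside 24.4% and 24.8% of all genes, 49.3% in all. This mean weighs the gates equally on the log2 scale, while the pool lay nearer responders. For the members other than Jun, a difference between the gates alone can therefore give such a call. Whether the pool departs from a mixture of the gates was not tested. The pool was collected after the gated cells, and collection order cannot be told apart from gating in these comparisons.

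Levels were compared between genes per kilobase of annotated exon (GENCODE vM21, GRCm38). In untreated cells Ier3 at 90.7, Jund at 87.6, Junb at 70.3, Atf3 at 66.9 and Jun at 50.4 CPM per kilobase were the higher group. Fos at 6.44 and Fosl2 at 5.75 CPM per kilobase followed, and Fosb, Egr1 and Egr2 were at 0.201, 0.159 and 0.0847. In responders the order began with Ier3 at 730.4, Atf3 at 446 and Junb at 276 CPM per kilobase. In bystanders Atf3 led at 246, with Junb next at 153, and Ier3 at 86.4, Jund at 82.2 and Jun at 79.4 lay close together. Fos at 12.8 CPM per kilobase exceeded Fosl2 at 5.67 in bystanders, while in responders Fosl2 at 8.22 exceeded Fos at 4.61.

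Among other genes of the bZIP class, to which AP-1 belongs, 23 were tested. In responders against bystanders 10 were higher, 9 lower and 4 had no call, beside 34.7% higher and 35.3% lower over all genes. The median log2 difference was 0.06 beside -0.01 over all genes, and scaling by totals alone gave 8 higher and 11 lower. Jdp2, a repressor that pairs with Jun proteins, was 2.44-fold higher in responders, at 62.9 CPM against 25.8 CPM in bystanders (adjusted p = 1.18e-35). Others, chosen after their values were seen, were Fosl1, the gene of the remaining Fos-family protein Fra-1, 2.37-fold higher in responders (15.5 CPM, beside 6.51 CPM in bystanders), and Crem, a cAMP-responsive factor, 2.50-fold lower there (27.0 CPM, beside 67.7 CPM). Mafk, a small Maf protein gene, was 2.15-fold higher in bystanders than in the pool (adjusted p = 1.92e-32). In the pool against untreated cells 15 of the 23 were higher and 5 lower, beside 34.1% and 37.8% of all genes, with a median of 0.59, and scaling by totals alone gave 13 and 9. Batf2, which pairs with Jun proteins, rose from 0.338 to 30.9 CPM and was at 41.6 CPM in bystanders (adjusted p = 4.60e-45 for the pool and 2.69e-48 for bystanders). Cebpd rose 5.80-fold in the pool and 6.22-fold in responders. Cebpb was 1.70-fold higher in responders than in the pool (adjusted p = 0.000221), and Jdp2 1.19-fold (adjusted p = 1.23e-06).

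**Figure D4:**
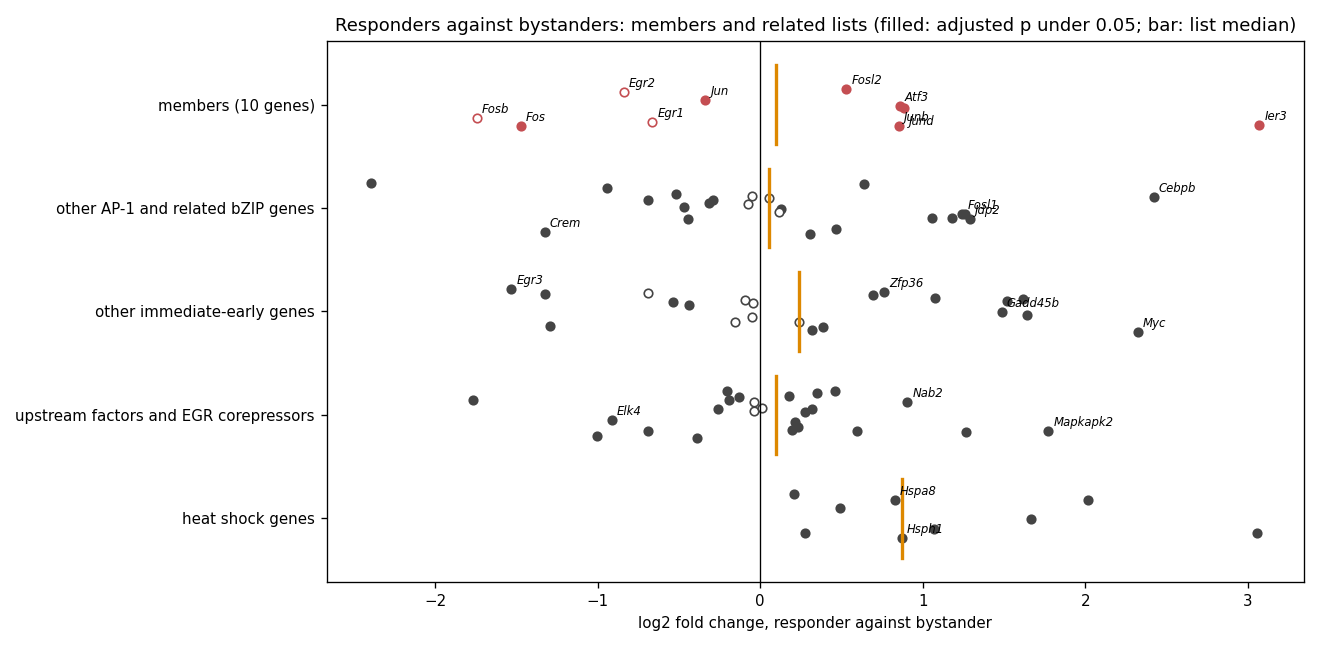
The horizontal axis gives the log2 fold change of responders against bystanders for each tested gene of 5 lists, filled where adjusted p was under 0.05, with an orange bar at the list median. The first 4 lists hold genes on both sides of 0, and all 9 heat shock genes lie above it.

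Among 21 other immediate-early genes, 10 were higher in responders, 5 lower and 6 without a call (median log2 0.24), beside 34.7% and 35.3% of all genes, and the split became 10 and 9 under scaling by totals. Gadd45b, a stress-response gene, held 397 CPM in responders and 141 CPM in bystanders, 2.80-fold apart (adjusted p = 6.67e-54), and Zfp36, whose product promotes cytokine mRNA decay, held 384 and 226 CPM, 1.70-fold apart (adjusted p = 2.49e-38). Egr3, chosen after its values were seen, was higher in bystanders, at 9.40 against 3.24 CPM (adjusted p = 1.22e-17), beside 1.41 CPM in untreated cells. In the pool against untreated cells 14 of the 21 were higher and 3 lower (median 0.81), beside 34.1% and 37.8% of all genes. In bystanders against untreated cells they were 15 and 3 (median 0.87), beside 34.1% and 33%. With library totals alone these became 12 and 4 in the pool and 13 and 6 in bystanders. Csrnp1, a nuclear immediate-early gene, rose 6.71-fold in bystanders, from 16.02 to 107 CPM (adjusted p = 1.75e-54), and Zfp36 rose 6.87-fold there, beside 10.4-fold in the pool. Klf2, a factor that restrains inflammatory activation, was 2.55-fold higher in bystanders than in the pool (adjusted p = 1.35e-36), and Plk2 was 1.19-fold higher in responders than in the pool (adjusted p = 1.45e-15).

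Of 24 genes for upstream factors and EGR corepressors, 12 were higher in responders than in bystanders, 9 lower and 3 had no call. Their median log2 difference was 0.10. Over all genes 34.7% were higher and 35.3% lower, and library totals alone gave 8 and 12 of the 24. Mapkapk2, a kinase activated by p38, held 1313 CPM in responders and 384 CPM in bystanders, 3.42-fold apart (adjusted p = 6.72e-61). Nab2, a corepressor that binds EGR proteins, was 1.87-fold higher at 66.0 against 35.3 CPM (adjusted p = 1.37e-29). In the pool against untreated cells 11 were higher and 8 lower (median 0.06), beside 34.1% and 37.8% of all genes. With library totals alone these became 7 and 16. Map2k1, the gene of a kinase that activates ERK, rose 1.87-fold in the pool and 1.58-fold in bystanders, and Map2k4, the gene of a kinase that activates JNK, rose 2.08-fold in bystanders (adjusted p = 6.60e-34). Mapk7 was 2.32-fold lower in bystanders than in the pool (adjusted p = 2.91e-27). Srf, the factor that binds CArG boxes, was at 58.2, 74.1, 79.95 and 70.5 CPM in untreated cells, the pool, responders and bystanders, and was chosen after its values were seen.

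The list of 9 heat shock genes was chosen with earlier results of these data known. All 9 were higher in responders than in bystanders (median log2 difference 0.87), beside 34.7% of all genes called higher. With library totals alone 8 were higher. Hspa8, a constitutive chaperone gene, was 1.78-fold higher, and Hsph1 1.83-fold higher at 310.1 against 169 CPM (adjusted p = 2.09e-41). In bystanders against untreated cells 1 was higher and 5 lower, beside 34.1% and 33% of all genes. Hsph1 was 1.41-fold and Hspd1 1.29-fold lower there, and library totals alone gave 1 higher and 7 lower. In the pool 7 were higher and 1 lower, beside 34.1% and 37.8% of all genes, with Dnajb1 1.89-fold higher. Library totals alone gave 4 and 3 in the pool. Heat shock levels thus moved with Junb, Jund, Atf3 and Ier3 and against Fos and Jun between the gates, and their part in those differences was not tested.

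Genes outside the set with the most similar pattern were sought by Pearson's r of log2 CPM over the 16 libraries, among genes of at least 5 CPM. The r values reflect mainly the 4 group means, are given as a description, and share library depth and scaling. For Ier3 the closest were Sod2 (r = 1.00, at 93.8 CPM in untreated cells, 597 in the pool, 690.3 in responders and 89.9 in bystanders) and Ehd1. Atf3 was closest to Gch1 and Milr1, Junb to Slc15a3 and Npc2, Jund to Efhd2 and Hspa8, and Fosl2 to Tmem120a and Arhgdia, with r from 0.98 to 1.00. Fos was closest to Elk4 and Ppp1r10 (r = 0.98 each), of which Ppp1r10 held 56.2, 45.9, 43.4 and 96.2 CPM in the same order of groups. Jun was closest to Slfn3 and Plekhm3 (r = 0.99 each), and Slfn3 held 14.6, 22.5, 27.5 and 61.7 CPM. For Fosb, Egr1 and Egr2 the highest r were lower, 0.79 for COX2, 0.81 for Golgb1 and 0.845 for Iftap, with Man2c1, Pla2g5 and Dgke next. COX2 is here the RefSeq symbol of a mitochondrial cytochrome c oxidase subunit gene, not of the prostaglandin enzyme gene Ptgs2. Its levels were 46.0, 51.6, 45.2 and 57.7 CPM in the same order of groups. Among the members themselves r was 0.99 for Junb with Atf3, 0.975 for Ier3 with Jund and likewise with Fosl2, and 0.67 for Fos with Jun, and -0.82 for Fos with Jund.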

How the data were processed

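Raw counts of reads per Entrez gene for 16 libraries were deposited in 1 table with 3 empty columns and 0 columns of other samples. The submitters' processing notes name GRCm38 (mm10), featureCounts 2.1.1, HISAT2 2.2.2, fastp 1.1.0 and cutadapt 3.7. For annotation, strandedness and multi-mapping, the settings used were not given in the sources used here. Of 27179 identifiers 25275 matched symbols in the RefSeq table of GRCm38.p6, the same build, and the other 1904 (0.399% of counts) stayed in the tests.

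Counts were fitted in edgeR 4.0.16 (R 4.3.3) with filterByExpr, TMM scaling and a robust quasi-likelihood model over all 16 libraries with 1 mean per group. Tests were two-sided, adjusted by Benjamini-Hochberg over 12589 genes, and called under 0.05. The SE of a log2 fold change is its size divided by the root of the F statistic. CPM values use TMM-scaled totals. The fit was run on simulated data with few changed genes, in responders only, higher and lower in equal number, and the same spread for all genes. Such data do not cover the many genes called here or the differences in scaling between groups. In 24 comparisons of replicates, chi-square per degree of freedom was 1.62 to 3.13, and none agreed within sampling noise. Alternatives were library totals alone, RLE factors, DESeq2 1.42.0, other filters, only the groups compared, a replicate block and leaving out each library. Fits without the 6 libraries of at least 50 Stmn2 reads and without the 2 of over 1000 Col1a1 reads were added after seeing the data. The members and lists were chosen with earlier results of these data known. All 10 members are named, with 2 genes per list and comparison of smallest p at 1 CPM or more, of which those already described are not all repeated, and the 2 most similar genes per member. A gene that this rule names is not reported here. Promoter windows are RefSeq's (GRCm38.p6).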

Additional observations from a re-analysis of the deposited data

Results flagged for a closer look

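Within groups of 4 libraries, 6 of 40 gene and group combinations held a library far from the other 3 by Dixon's criterion. Chance alone gives about 1 in 20 combinations. Fosb stood at 2.85 CPM in LPS pool replicate 3 and at 3.18 CPM in bystander replicate 3, where the nearest library of the group held 0.520 and 0.778 CPM. Egr1 stood at 4.09 and 2.79 CPM in the same libraries, where the nearest held 1.04 and 1.43 CPM. These are the libraries with 73.5 and 53.7 CPM of Col1a1, and both also hold Stmn2, at 3.66 and 2.68 CPM. What part those transcripts have in the values was not tested. Junb at 509 CPM and Jund at 263 CPM were highest in responder replicate 1, above 498 and 251 CPM in the nearest library. That library is the responder library with Stmn2 reads, 74 of them, against 1 to 5 in the other 3. Untreated replicate 1, with 75 Stmn2 reads, held the lowest Junb and Jund of the untreated libraries, 122 and 139 CPM. What part those transcripts have in Junb and Jund was not tested.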

How the results depend on the processing

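Over 7 comparisons and 25 alternatives, Fos, Junb and Atf3 kept direction and side of the threshold in 175 of 175 values each, Jund in 174, Jun in 172, Fosl2 in 169 and Ier3 in 168. Counts of members lower changed most. With library totals alone they were 4 for responders against bystanders in place of 2, 3 for bystanders against untreated in place of 1, and 2 each for the pool and responders against untreated in place of 1. With only the groups compared in the fit, they were 4 for responders against bystanders and 2 for responders against untreated. For bystanders against untreated, 2 were lower with no filter, with a stricter filter, and without the libraries high in Stmn2 or in Col1a1, and without the latter 2 sets responders against untreated also had 2. The stricter filter left out the 3 genes of few reads, so these had no value. Deviations of same-numbered libraries correlated at r from -0.47 to 0.60 over 24 pairs, 12 of them above 0.1, so not every pair deviated together, and no label says that a number marks a shared culture or day. As a hint from the data that numbers share something, 10 of 16 libraries were closest to their own number and Col1a1 reads matched by number as given above. Whether the numbers pair the libraries is not settled. With the replicate block, members lower were 2 for responders against untreated and 1 against the pool in place of 0, both by Fosb (adjusted p = 0.0300 and 0.0403). The block also called Fosb lower in responders than in bystanders (log2 -1.50, adjusted p = 0.000758) and Egr1 higher in the pool than in untreated cells (log2 1.08, adjusted p = 0.00773).

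Leaving out 1 library in turn gave 0 to 2 members lower for bystanders against untreated (0 without bystander replicate 2, 2 without bystander replicate 3 or 4) and 2 to 4 for responders against bystanders (4 without LPS pool replicate 3). Signs turned for Jun with library totals alone (-0.11 for the pool and -0.061 for responders against untreated), and for Fosl2 in bystanders against untreated with RLE (0.0018) and DESeq2 (0.0014) and, leaving out 1 library, between -0.040 and 0.0025. Egr1 turned with DESeq2 for bystanders against the pool (-0.0057). Without the libraries high in Stmn2 and without those high in Col1a1, Egr1 turned for responders against the pool (0.18 and 0.28) and for the mean of the gates against it (0.34 and 0.42). Fosb then turned for the pool (-0.75 and -0.78) and bystanders (-0.43 and -0.19) against untreated and for the mean of the gates against the pool (0.081 and 0.23). Leaving out 1 library, Egr1 ran from -0.35 to 0.94 for bystanders, -0.87 to 0.28 for responders and -0.54 to 0.61 for the mean of the gates against the pool, and Egr2 from -0.23 to 0.46 for responders against it. Fosb ran from -0.63 to 1.61 for bystanders and -0.99 to 0.74 for the mean of the gates against the pool, and from -0.19 to 1.07 for bystanders and -0.78 to 0.73 for the pool against untreated. Without LPS pool replicate 3, bystanders were called higher than the pool for Fosb (log2 1.61, adjusted p = 0.0110) and Egr1 (log2 0.94, adjusted p = 0.00697). Causes were not tested. Of 1400 counts for the related lists, 1356 stayed within 1.5 times. The few reads of Fosb, Egr1 and Egr2 limit what can be said of them.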
